A study of Mus musculus with 33 samples.

Results

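Epithelial cells of the simple, single-layered kind build their intermediate filaments from keratins, which assemble only as pairs of a type II and a type I chain. *Krt8* and *Krt7* encode type II chains, and *Krt18* and *Krt19* encode type I chains. *Krt8* and *Krt18* form the pair typical of the earliest embryonic epithelia, trophectoderm and extra-embryonic endoderm. Filaments are anchored at desmosomes through desmoplakin, the product of *Dsp*, whereas claudins, 4-pass membrane proteins such as those of *Cldn4*, *Cldn6* and *Cldn7*, form the strands of tight junctions. These 8 genes were followed by symbol through embryoid body differentiation of mouse embryonic stem (ES) cells. All 8 of 8 were listed among 16336 genes, and all 8 reached a mean of 1 TPM in a group, as did every gene listed. TPM is the usual measure of relative transcript abundance and is corrected for transcript length, so levels of different genes can be set side by side.

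Poly-A RNA was sequenced from 33 libraries of 3 lines. E14Tg2a is a wild-type line of strain 129/Ola. ΔK9.1 and ΔK9.2 are each 1 clone derived from it with CRISPR/Cas9, and both are homozygous for a deletion between the enhancer and the promoter of *Nanog*. The gene encodes a pluripotency factor, and the deletion was made to ask how histone H3K9 methylation in that region bears on differentiation. All lines were grown on gelatine in serum with LIF (day 0). Aggregates were then kept in suspension without LIF until day 4, and replated on gelatinised dishes for collection on days 6 and 8. Suspension culture and attachment therefore cannot be told apart from time on days 6 and 8. Each line had 3 replicates on days 0, 4 and 8, and 2 on day 6, numbered 2 and 3. Replicates of the same number were cultured in parallel. No row of the expression table measures the deleted segment, so the labels of the clones could not be checked at the target. Listed TPM summed to between 994284 and 998266 per library, with 12903 to 13905 genes at 1 TPM or more. TPM keep no read depth, so no counting interval is given.

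The label of undifferentiated cells was checked against ES cell markers. The summed TPM of 6 such genes (*Pou5f1*, *Sox2*, *Nanog*, *Zfp42*, *Esrrb* and *Tdgf1*) was between 3743 and 4257 in the E14Tg2a day 0 libraries and between 154 and 322 on day 8. The first of these day 0 libraries stood apart for the epithelial genes. It was the highest of the 3 for 8 of 8 members, at 7.71 times the mean of the other two for *Krt8*, 7.81 for *Krt18* and 7.80 for *Krt19*. For the junction genes it was at 3.61 times that mean for *Cldn6*, 3.21 for *Cldn7*, 1.83 for *Dsp* and 1.57 for *Cldn4*. The summed TPM of 13 extra-embryonic endoderm markers was 145.7 in it against 11.3 and 16.3 in the others, with 12 of the 13 highest there. For 6 trophoblast markers the sum was 18.1 against 6.96 and 6.40. Its ES cell sum of 3743 was below the 3876 and 4257 of the others. The part of these cells in the keratin values was not tested, and the members' called changes from day 0 in E14Tg2a are given with and without this library. The first ΔK9.2 library of day 0 also had a higher endoderm sum than its replicates (74.2 against 9.28 and 9.08 TPM), while its *Krt8* and *Krt18* sum of 29.6 TPM was near theirs (27.4 and 21.5 TPM).

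*Krt8* and *Krt18* lay next to each other on chromosome 15 (mm10, GENCODE M21). *Krt8* occupied chr15:101996698-102004482 on the minus strand and *Krt18* chr15:102028180-102032027 on the plus strand, with 23.7 kb between their start-proximal ends. *Krt7* (chr15:101411043-101430313, plus strand) was 566 kb from *Krt8* in the type II cluster. *Krt19* was in the type I cluster (chr11:100140810-100148665, minus strand). The others were *Dsp* (chr13:38151294-38198577, plus strand), *Cldn4* (chr5:134945119-134946934, minus strand), *Cldn6* (chr17:23679249-23682446, plus strand) and *Cldn7* (chr11:69964779-69967885, plus strand). A processed copy, *Krt8-ps*, was listed at 0 to 3.55 TPM, and some reads could be shared between it and *Krt8*.

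The sequence just upstream of 4 of the members is shown because they stand for the different time courses described next: the *Krt8* and *Krt18* pair, *Cldn6*, which peaked on day 4, and *Cldn4*, which was lowest after replating. Each is read 5′ to 3′ on the strand of the gene, from the 250 bases before the start given by RefSeq (GRCm38.p6, the same build as mm10), and only the longest stretch outside annotated exons is printed. The stretches are chr15:102004483-102004592 (minus strand) for *Krt8*, chr15:102027966-102028179 (plus) for *Krt18*, chr17:23679115-23679248 (plus) for *Cldn6* and chr5:134946935-134947184 (minus) for *Cldn4*. Capitals mark motif matches on either strand.
Krt8: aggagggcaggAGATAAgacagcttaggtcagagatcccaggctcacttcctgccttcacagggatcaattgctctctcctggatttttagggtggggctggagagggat
Krt18: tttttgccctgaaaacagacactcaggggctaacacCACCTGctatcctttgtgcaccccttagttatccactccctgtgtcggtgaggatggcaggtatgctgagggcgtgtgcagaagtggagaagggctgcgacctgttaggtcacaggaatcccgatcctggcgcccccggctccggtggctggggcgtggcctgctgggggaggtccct
Cldn6: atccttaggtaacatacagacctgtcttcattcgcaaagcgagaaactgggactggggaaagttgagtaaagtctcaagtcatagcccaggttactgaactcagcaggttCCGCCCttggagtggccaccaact
Cldn4: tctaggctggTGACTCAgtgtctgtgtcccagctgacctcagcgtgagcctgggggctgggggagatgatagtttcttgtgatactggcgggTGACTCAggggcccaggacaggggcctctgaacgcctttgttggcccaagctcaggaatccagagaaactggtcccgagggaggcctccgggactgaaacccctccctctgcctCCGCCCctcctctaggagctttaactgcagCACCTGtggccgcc

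The motifs searched were CAGGTG (the E-box read by Snail and Zeb repressors), GGGCGG (a GC box read by Sp factors), TGANTCA (AP-1), AGATAA (read by Gata factors), and AACCGGTT with its looser form AACNGGTT (grainyhead-like factors, the first contained in the second). They were read on both strands in the whole 250 bases, of which the exonic part is not printed. RefSeq starts were matched for 7 of 8 members, 8 starts in all since *Cldn7* had 2. *Krt19* had none. CAGGTG was in 6 of the 8 windows, against 17.2% of 32851 windows of the same length genome-wide, and was missing from 1 *Cldn7* window and from that of *Dsp*. GGGCGG was in 5, against 32.7%. AGATAA was only in the *Krt8* window among the 8 (9.99% of all windows) and TGANTCA only in that of *Cldn4*, at 2 places (6.75%). Neither grainyhead form was in any of the 8 windows (0.116% and 1.79% of all). A match of letters is a description of the sequence and says nothing of binding.

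In E14Tg2a, *Krt8* and *Krt18* were the members that changed most. *Krt8* was at 78.7, 13.7 and 6.69 TPM in the replicates of day 0, at 111, 35.7 and 80.8 TPM on day 4, at 459.5 and 334 TPM on day 6, and at 928, 756 and 800.1 TPM on day 8. *Krt18* was at 54.7, 8.97 and 5.04 TPM on day 0, at 185.5, 86.5 and 137 TPM on day 4, at 289.8 and 224 TPM on day 6, and at 628, 650.3 and 703 TPM on day 8. For both genes every library of day 6 was above every library of days 0 and 4, and every library of day 8 was above those of day 6. The mean of *Krt8* went from 33.03 ± 39.7 TPM (SD, n = 3) to 828 ± 89.3 TPM (SD, n = 3), and that of *Krt18* from 22.9 ± 27.6 to 660.5 ± 38.5 TPM (SD, n = 3 each).

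Changes were tested with limma on log2(TPM + 1) in 1 fit of all 33 libraries, with Benjamini-Hochberg adjustment over all 16336 genes, and a gene was called at an adjusted p below 0.05 with a log2 fold change beyond 1. Fold changes on this scale understate those of genes at low TPM. Between days 0 and 8, *Krt18* rose by 5.46 (SE 0.44, limma adjusted p = 1.7e-10) and *Krt8* by 5.31 (SE 0.49, adjusted p = 1.7e-09) on the log2 scale. Of the 8 members, 7 rose, where 15.9% of all genes did, and *Cldn4* fell, so that all 8 were called, where 26.9% of all genes were in either direction. The median change of the members was 2.56, against 0.05 over all genes. In RNA from whole cultures, a larger share of epithelial cells and more keratin RNA per cell cannot be told apart. Without the first day 0 library the log2 change was 6.28 for *Krt8* and 6.41 for *Krt18*, and in ratios of mean TPM it went from 25.1-fold to 81.1-fold for *Krt8* and from 28.8-fold to 94.3-fold for *Krt18*. Without replicate 3 of day 0 it was lower, at 4.59 for *Krt8* and 4.81 for *Krt18*. The size of the keratin change thus depended on which day 0 libraries were used, whereas its call was kept without any 1 library.

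**Figure D1:**
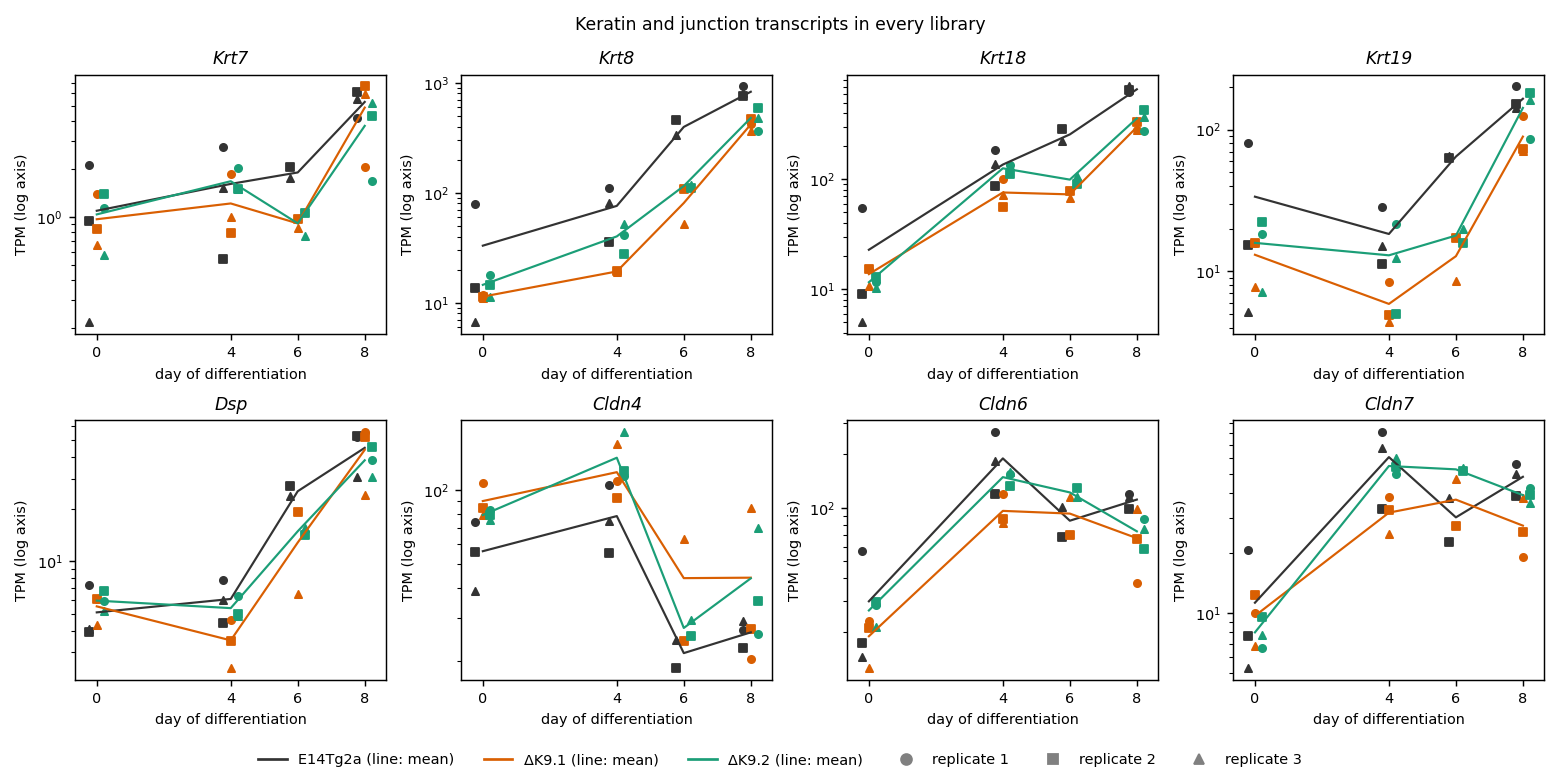
TPM (log axis) of each gene against day of differentiation, with a point for each library and a line through the mean of each line. *Krt8* and *Krt18* in E14Tg2a end at 756 to 928 and 628 to 703 TPM on day 8, above every library of the clones, whereas the E14Tg2a means of *Cldn6* and *Cldn7* are highest on day 4.

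*Krt19* and *Dsp* were not called on day 4, and *Krt7* was not called before day 8. This does not put them after *Krt8*, whose libraries of days 0 and 4 overlapped too. On day 4 *Dsp* was at 13.5% of its own day 8 mean and *Krt19* at 11.1%, against 9.17% for *Krt8* and 20.7% for *Krt18*. *Krt19* was at 80.4, 15.4 and 5.21 TPM on day 0, at 28.6, 11.3 and 15.2 TPM on day 4, at 63.6 and 65.6 TPM on day 6, and at 202, 152 and 142 TPM on day 8. Its libraries of days 0 and 4 overlapped (limma log2 change -0.16, not called), and all 3 of day 8 were above all of the earlier days. The log2 rise was 1.70 by day 6 (SE 0.68, adjusted p = 0.0480) and 3.02 by day 8 (SE 0.60, adjusted p = 0.000132). Without the first day 0 library the day 4 difference turned to 0.84, still not called, and the rises by days 6 and 8 were 2.70 and 4.02, whereas without replicate 3 of day 0 they were 0.84 (not called) and 2.17. *Dsp* was at 7.31, 3.90 and 4.06 TPM on day 0, at 7.81, 4.44 and 5.99 TPM on day 4, at 27.1 and 23.7 TPM on day 6, and at 51.9, 52.7 and 30.8 TPM on day 8. Days 0 and 4 overlapped again, and the step came between days 4 and 6. On the log2 scale *Dsp* was 2.16 above day 0 on day 6 (SE 0.35, adjusted p = 2.64e-05) and 2.92 above it on day 8 (SE 0.31, adjusted p = 1.94e-08), or 2.40 and 3.17 without the first day 0 library. *Krt7*, whose product pairs with type I chains in ducts and other simple epithelia, stayed between 0.218 and 2.77 TPM through day 6 and reached 4.17 to 6.16 TPM on day 8, a log2 rise of 1.68 (adjusted p = 0.000253), or 2.02 without that library. Its mean there, 5.30 ± 1.02 TPM (SD, n = 3), was the lowest of the 8 members.

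The claudins did not share this course. *Cldn6*, a claudin of embryonic epithelia, was at 57.4, 17.3 and 14.5 TPM on day 0, at 266, 119 and 183 TPM on day 4, at 68.2 and 101 TPM on day 6, and at 120.1, 98.6 and 115 TPM on day 8. *Cldn7* was at 20.8, 7.67 and 5.31 TPM, then at 81.0, 33.4 and 67.6 TPM, then at 22.8 and 37.6 TPM, and at 55.9, 38.9 and 50.2 TPM on those days. Both had their highest mean in the suspension aggregates of day 4, where every library was above every day 0 library. Both day 6 libraries were below all of day 4 for *Cldn6*, whereas those of *Cldn7* overlapped with day 4. On the log2 scale *Cldn6* rose by 2.83 (SE 0.37, adjusted p = 4.61e-06) and *Cldn7* by 2.45 (SE 0.35, adjusted p = 1.19e-05) by day 4, and both were still higher than on day 0 on day 8, by 2.13 (adjusted p = 2.47e-05) and 2.20 (adjusted p = 6.2e-06). Without the first day 0 library the rises by days 4, 6 and 8 were 3.43, 2.32 and 2.73 for *Cldn6* and 2.97, 2.04 and 2.72 for *Cldn7*, against 1.72 and 1.52 by day 6 with it. *Cldn4* went the other way. It was at 74.3, 55.8 and 38.7 TPM on day 0, at 105, 55.1 and 74.9 TPM on day 4, at 18.9 and 24.4 TPM on day 6, and at 27.0, 22.7 and 29.2 TPM on day 8. Every library of days 6 and 8 was below every library of days 0 and 4. *Cldn4* fell by 1.30 (SE 0.44, adjusted p = 0.0202) by day 6 and by 1.03 (SE 0.39, adjusted p = 0.0271) by day 8 on the log2 scale, and neither was called without the first day 0 library (-1.08, adjusted p = 0.0811, and -0.81, adjusted p = 0.121). The day 6 call was also lost without either day 6 library (adjusted p = 0.150 and 0.0503), and the day 8 call without replicate 2 of day 0 (0.0599) or of day 8 (0.0828).

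By day, the calls in E14Tg2a, all against the same day 0 libraries, were 4 of 8 higher on day 4 (*Krt18*, *Cldn6*, *Cldn7* and *Krt8*, where 3.67% of all genes were higher), 6 higher and *Cldn4* lower on day 6 (8.95% and 8.69% of all genes), and 7 higher and 1 lower on day 8. *Krt18* led *Krt8* on day 4, with a log2 rise of 3.13 (SE 0.44, adjusted p = 1.11e-05) against 1.74 (SE 0.49, adjusted p = 0.0103). Without the first day 0 library these were 4.08 and 2.71, and by day 6 the rises were 5.04 for *Krt18* and 5.21 for *Krt8*, against 4.09 and 4.24 with it. The rises were smaller without replicate 3 of day 0, at 1.02 by day 4 and 3.52 by day 6 for *Krt8*, and 3.44 by day 6 for *Krt18*. Leaving out 1 library took the day 4 rise of *Krt18* as low as 2.48. On day 4 *Krt18* stood at 20.7% of its own day 8 mean, *Krt8* at 9.17%. By day 6 the order was turned, with 38.9% for *Krt18* and 47.9% for *Krt8*, and *Dsp* was at 56.3%. With only the libraries of the compared groups in the fit, *Krt8* on day 4 (adjusted p = 0.152), *Krt19* on day 6 (0.191) and *Cldn7* on day 6 (0.0521) were not called. Leaving out libraries ended the same calls. *Krt8* on day 4 was lost without replicate 2 or 3 of day 0 (adjusted p = 0.0588 and 0.113) or replicate 1 of day 4 (0.0662), *Krt19* on day 6 without replicate 2 or 3 of day 0 or either day 6 library (0.116 to 0.314), and *Cldn7* on day 6 without replicate 3 of that day (0.0737).

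**Figure D2:**
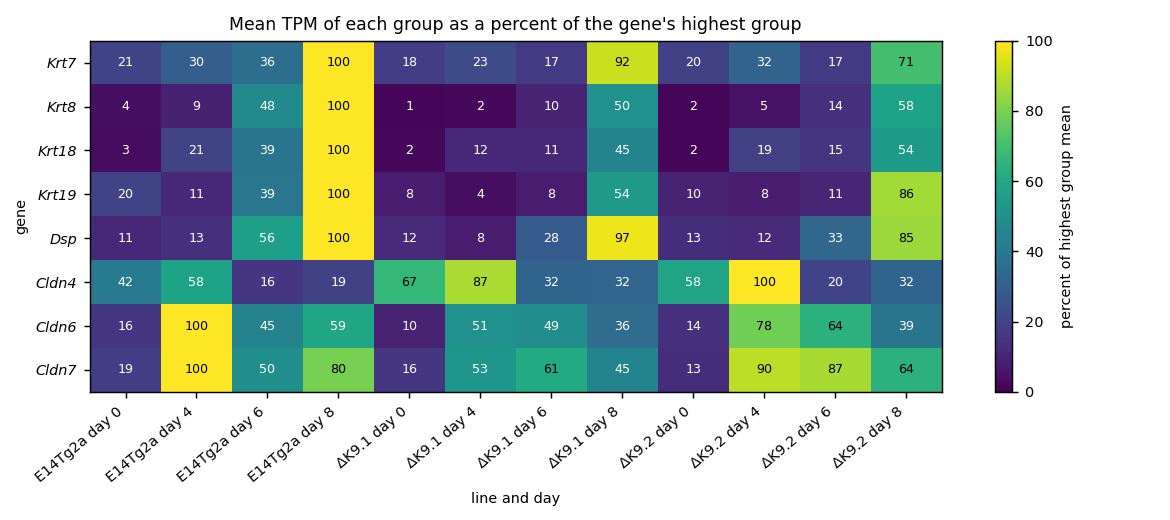
Mean TPM of each gene (rows) in each of the 12 groups of line and day (columns), as a percent of the highest group mean of that gene. The keratins and *Dsp* are highest in E14Tg2a on day 8, *Cldn6* and *Cldn7* in E14Tg2a on day 4, and *Cldn4* in ΔK9.2 on day 4.

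Since type I and type II chains are needed in pairs, *Krt8* was set against *Krt18* within each library. On day 0 the ratio of *Krt8* to *Krt18* TPM was between 0.735 and 1.55, with 7 of 9 libraries above 1. On day 4 it was between 0.192 and 0.600, so *Krt18* exceeded *Krt8* in all 9 libraries of the 3 lines. The ratio returned to between 0.766 and 1.59 on day 6 (5 of 6 above 1) and to between 1.14 and 1.49 on day 8 (9 of 9 above 1). On day 4 the E14Tg2a libraries (0.413 to 0.600) did not overlap with those of ΔK9.1 (0.192 to 0.352) or ΔK9.2 (0.247 to 0.389), a difference that was not tested. On day 8 the mean log2 ratio was 0.12 higher in the clones (6 against 3 libraries, two-sided exact permutation p = 0.262, smallest possible 0.0238), and between 0.053 and 0.241 with any 1 library left out. Permuted within replicate numbers, the exact permutation p was 0.222 (smallest possible 0.0741). Both permutations treat libraries as exchangeable, although the 6 are repeat cultures of ΔK9.1 and ΔK9.2. The type II share of the summed TPM of the 4 keratins in E14Tg2a was 38.4% and 32.3% on days 0 and 4, and 55.2% and 50.1% on days 6 and 8. In ΔK9.1 it went from 32.2% and 20.7% to 47.3% and 52.0% over the same days, and in ΔK9.2 from 36.9% and 22.8% to 49.8% and 49.1%.

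**Figure D3:**
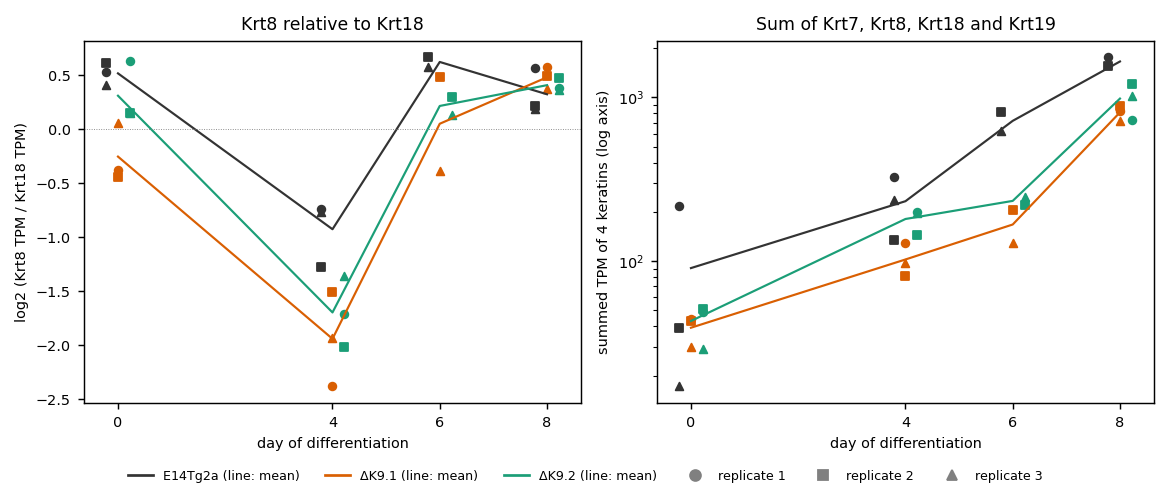
Left, log2 of the *Krt8* to *Krt18* TPM ratio, and right, the summed TPM of *Krt7*, *Krt8*, *Krt18* and *Krt19* (log axis), against day, with a point for each library and a line through the mean of each line. Every library is below 0 on day 4 and above 0 on day 8 in the left panel, and in the right panel the E14Tg2a libraries reach 1564 to 1762 TPM on day 8.

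Both clones ended with the same genes called as E14Tg2a for the 7 that rose. In ΔK9.1, 7 members were higher on day 8 than on day 0 (10.9% of all genes) and *Cldn4* was lower by 1.28 on the log2 scale (adjusted p = 0.00853, 20.9% of all genes were called in either direction), a call lost without replicate 1 of day 8 (adjusted p = 0.0831). In ΔK9.2, 7 were higher (1790 of 16336 genes were, and 22.2% were called in either direction) and *Cldn4* was not called, since its change was smaller than the limit of 1 (-0.96, adjusted p = 0.0425). The log2 rise of *Krt8* was 5.07 and 4.94 in ΔK9.1 and ΔK9.2, and that of *Krt18* 4.36 and 4.82. *Dsp* rose by 2.71 and 2.48, *Krt19* by 2.69 and 3.15, *Cldn6* by 1.72 and 1.44, *Cldn7* by 1.40 and 2.17, and *Krt7* by 1.49 and 1.15. *Krt7* in ΔK9.2 lost its call without replicate 3 of day 0 (log2 change 0.98) or of day 8 (0.92, adjusted p = 0.0582), and *Cldn4* there was called without replicate 3 of day 8 (-1.36, adjusted p = 0.00856). The median change of the members was 2.20 and 2.33 in these clones, against 0.01 and -0.02 over all genes.

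In the outgrowths of day 6, *Krt8* was lower in the clones than in E14Tg2a, and the other keratins were not called. *Krt8* was at 109 and 52.2 TPM in ΔK9.1 and at 111 and 119 TPM in ΔK9.2, against 459.5 and 334 TPM in E14Tg2a. *Krt18* was at 78.0 and 68.1 TPM and at 90.8 and 108 TPM, against 289.8 and 224 TPM. *Krt19* was at 17.1 and 8.55 TPM and at 15.8 and 20.0 TPM, against 63.6 and 65.6 TPM. All 4 clone libraries were below both E14Tg2a libraries for these 3 genes, and also for *Dsp* (6.48 to 19.2 against 23.7 and 27.1 TPM) and *Krt7* (0.759 to 1.06 against 1.76 and 2.05 TPM). That made 5 of 8 members, where 19.6% of all genes had such an order. The claudins overlapped between the lines on day 6, although *Cldn4*, *Cldn6* and *Cldn7* were each above the E14Tg2a library of the same number in 4 of 4 clone libraries, as were 18.1% of all genes (log2 differences of 0.59, 0.33 and 0.55, none called). The mean TPM of E14Tg2a was 4.05 times that of the clones for *Krt8*, 2.97 times for *Krt18*, 4.20 times for *Krt19* and 1.83 times for *Dsp*.

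*Krt8* was the only member called on day 6, lower by 2.06 on the log2 scale (log2 change -2.06, SE 0.52, 95% interval -3.13 to -0.98, limma adjusted p = 0.0244), where 1.37% of all genes were called lower. *Krt19* was at -2.06 (adjusted p = 0.0718), *Krt18* at -1.57 (adjusted p = 0.0577) and *Dsp* at -0.91 (adjusted p = 0.132). In a fit blocked on replicate number, *Krt18* (adjusted p = 0.0366) and *Krt19* (adjusted p = 0.0260) were called as well. *Krt8* lost its call without either E14Tg2a library (adjusted p = 0.349 and 0.0957), without ΔK9.1 replicate 3 (0.124) or without either ΔK9.2 library (0.0699 and 0.0510), and without ΔK9.1 replicate 2 the calls were *Krt8*, *Krt19* (0.0465) and *Dsp* (0.0133). The median of the members was -0.76, against -0.03 over all genes.

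On day 8 the keratins of the clones had risen to 422, 469 and 363 TPM of *Krt8* in ΔK9.1 and 362, 595 and 479 TPM in ΔK9.2, still below the 756 to 928 TPM of E14Tg2a in 6 of 6 libraries. *Krt18* was at 284, 334 and 279.9 TPM in ΔK9.1 and at 278, 428 and 373 TPM in ΔK9.2, below the 628 to 703 TPM of E14Tg2a in 6 of 6. *Cldn6* was at 37.5 to 98.4 TPM in the clones, below the 98.6 to 120.1 TPM of E14Tg2a. These were the 3 of 8 members without overlap, where 7.99% of all genes had every clone library below. No member was called in either direction in limma's test (3.42% of all genes were called lower and 0.826% higher). *Krt18* was at -1.02 (95% interval -1.80 to -0.23, adjusted p = 0.0602), *Krt8* at -0.90 (-1.78 to -0.02, adjusted p = 0.145) and *Cldn6* at -0.71 (adjusted p = 0.128). *Krt18* was called with the replicate block (adjusted p = 0.0435) and with only the day 8 libraries (adjusted p = 0.00706). *Krt19*, at 70.7 to 181 TPM in the clones and 142 to 202 TPM in E14Tg2a, and *Dsp*, at 24.1 to 55.6 and 30.8 to 52.7 TPM, overlapped. In ratios of mean TPM, E14Tg2a was at 1.85 times the clones for *Krt8*, 2.01 for *Krt18* and 1.43 for *Krt19*.

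**Figure D4:**
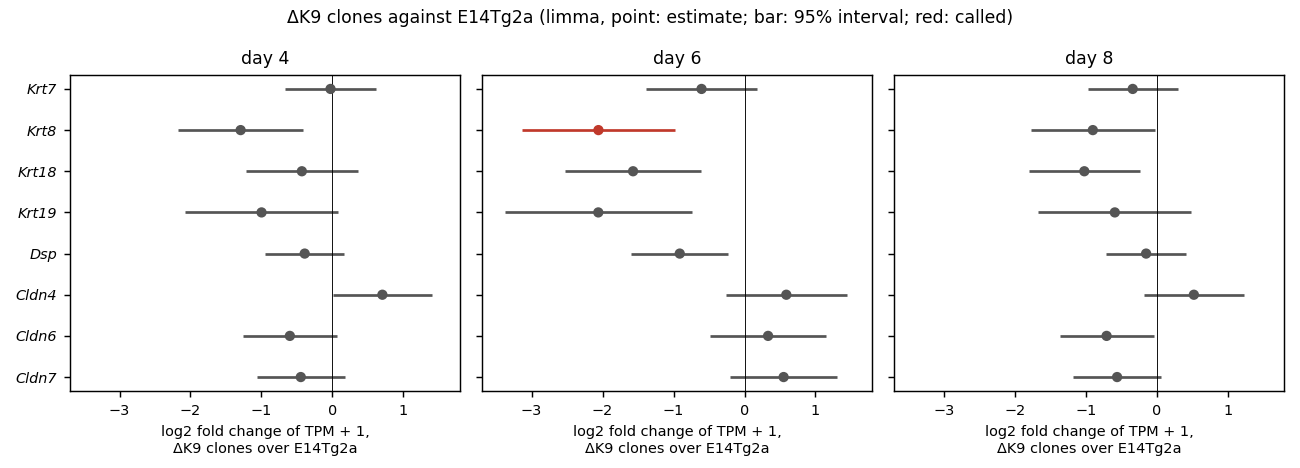
Log2 fold change of the ΔK9 clones against E14Tg2a on days 4, 6 and 8 for each gene (points), with the 95% interval of the limma fit (bars) and called genes in red. *Krt8* on day 6 (-2.06) is the only red point. Intervals also lie below 0 for *Krt8* on day 4, and for *Krt18*, *Krt19* and *Dsp* on day 6. On day 8 those of *Krt18*, *Krt8* and *Cldn6* lie below 0, whereas that of *Cldn4* on day 4 lies above it.

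On day 4 no member was called (0.710% of all genes were lower), and the differences ran from -1.29 for *Krt8* (adjusted p = 0.112) to 0.71 for *Cldn4* (adjusted p = 0.319). *Krt8* and *Krt19* were below the E14Tg2a library of the same number in 6 of 6 clone libraries, as were 16.4% of all genes, and *Krt18*, *Dsp*, *Cldn6* and *Cldn7* in 5 of 6 (32.9% of all genes in at least 5). *Krt8* was at 19.2, 19.5 and 19.0 TPM in ΔK9.1 and 41.3, 27.5 and 51.5 TPM in ΔK9.2. Without E14Tg2a replicate 2 of day 4 it was called (-1.76, adjusted p = 0.0459). *Cldn4* was above the E14Tg2a library of its own number in 6 of 6 clone libraries on day 4 (6.41% of all genes), at 92.6 to 153 TPM in ΔK9.1 and 114 to 172 TPM in ΔK9.2, against 55.1 to 105 TPM.

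The difference between the clones and E14Tg2a in the day 8 against day 0 change was tested as an interaction. No member was called (3.05% of all genes were), with differences from -0.87 for *Krt18* (adjusted p = 0.354) to -0.09 for *Cldn4*, and a median of -0.34 against -0.08 over all genes. Without the first E14Tg2a day 0 library *Krt18* was called (-1.82, adjusted p = 0.00167) and *Krt8* was at -1.27 (adjusted p = 0.0577), so the call of *Krt18* turned on that library.

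On day 0, a gene was called where both clones differed from E14Tg2a in the same direction with an adjusted p below 0.05 and a log2 change beyond 0.3 in a fit of the 9 day 0 libraries. No member was called (0.0758% of 14504 genes were, or 145 genes against 11 with the replicate block). *Cldn4* was at 75.6 to 107 TPM in the clones and at 38.7 to 74.3 TPM in E14Tg2a, without overlap, an order that 5.17% of all 16336 genes had. Its log2 difference from E14Tg2a was 0.71 for clone ΔK9.1 (adjusted p = 0.0429) and 0.53 for clone ΔK9.2 (adjusted p = 0.437). The first was lost on leaving out any 1 library other than the first of E14Tg2a, on fitting all 33 libraries (adjusted p = 0.274) and on testing all genes (0.0691). *Krt18* was at -0.04 and -0.26 in the 2 clones, and at 0.91 (adjusted p = 0.0300) and 0.69 (adjusted p = 0.189) without the first E14Tg2a library.

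Marker lists of other cell types were read in the same libraries. The summed TPM of the 13 extra-embryonic endoderm markers was 118 to 927 in E14Tg2a on day 4, 152 to 284 on day 6 and 417 to 559 on day 8. On day 6 the clones had 15.4 to 60.6 (ΔK9.1) and 33.6 to 38.5 (ΔK9.2), and on day 8 they had 47.3 to 186 and 76.0 to 96.5. Of these 13 genes, the clones had 9 called lower on day 4, then 3 and 8 on days 6 and 8, where 0.710%, 1.37% and 3.42% of all genes were. The 10 mesenchyme markers summed to 439.8 to 612 TPM in E14Tg2a and 79.4 to 288 TPM in the clones on day 6, and to 1134 to 2555 and 313 to 963 TPM on day 8, with 2 and 6 of the 10 called lower on those days. For 6 trophoblast markers the sums were 235 to 364 and 31.9 to 213 TPM on day 6, and 634 to 705 and 145 to 663 TPM on day 8. The day 8 sums were mostly *Hand1*, a factor also made in mesoderm, at a mean of 582 TPM in E14Tg2a and 257 and 316 TPM in ΔK9.1 and ΔK9.2, whereas *Cdx2* was at 56.1, 98.2 and 110.3 TPM. Of the 6, *Hand1* was called lower in the clones on day 6, with a median difference of -0.82 over the list, and only *Eomes* was called on day 8, higher in the clones, with a median of 0.05. The ES cell sum on day 6 was 1301 to 1496 TPM in E14Tg2a, 1790 to 1945 in ΔK9.1 and 1906 to 2214 in ΔK9.2. None of its genes was called on that day, with a median difference of 0.60. On day 8 the sum was 355 to 925 for ΔK9.1 and 424 to 1098 for ΔK9.2, with 6 of 6 of its genes called higher in the clones (0.826% of all genes). All 13 endoderm markers reached 1 TPM in some E14Tg2a library of day 6, whereas 7 were under 1 TPM in every library of each clone. The 4 surface ectoderm markers measured of 6 summed to 2.57 to 14.9 TPM throughout. The 5 mesothelium markers summed on day 8 to 19.8 to 33.2 TPM in E14Tg2a and 9.86 to 24.8 TPM in the clones, with *Upk1b* and *Upk3b* called lower, and the gut endoderm sum of day 8 overlapped, at 91.5 to 187 TPM in E14Tg2a and 95.1 to 210 TPM in the clones. Within the gut endoderm list 2 of 6 genes, *Foxa1* and *Sox17*, were nevertheless called lower on day 8, with a median difference of -0.69. The part of these cell types in the *Krt8* difference was not tested.

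**Figure D5:**
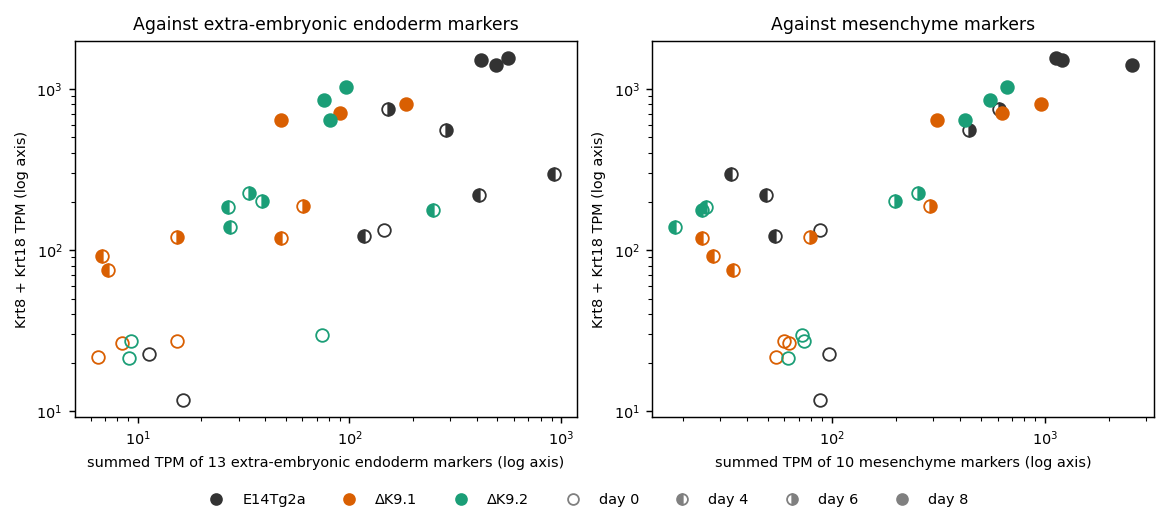
Summed TPM of *Krt8* and *Krt18* against the summed TPM of 13 extra-embryonic endoderm markers (left) and of 10 mesenchyme markers (right) on log axes, with a point for each library. Open, left-filled, right-filled and filled points are days 0, 4, 6 and 8, and the E14Tg2a libraries of day 8 are the highest on the keratin axis, at 417 to 559 and 1134 to 2555 TPM of markers.

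Ordered by mean TPM over the 12 groups, *Krt8* ran from E14Tg2a on day 8 through ΔK9.2 and ΔK9.1 on day 8 to E14Tg2a on day 6, then both clones on day 6, and ended with ΔK9.1 on day 0. Of the 11 pairs of neighbours in that order, 7 overlapped in their libraries. The steps without overlap were E14Tg2a over ΔK9.2 on day 8, E14Tg2a over ΔK9.2 and ΔK9.2 over ΔK9.1 on day 6, and ΔK9.1 on day 4 over ΔK9.2 on day 0. *Krt18* also had 7 overlapping neighbours. *Krt19* and *Dsp* had 9, *Cldn6* 10, and *Krt7*, *Cldn4* and *Cldn7* 11 of 11. The highest group was E14Tg2a on day 8 for the 4 keratins and *Dsp*, E14Tg2a on day 4 for *Cldn6* and *Cldn7*, and ΔK9.2 on day 4 for *Cldn4* (135 TPM).

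Within groups, the closest pairs were *Cldn6* with *Cldn7* and the keratins *Krt8*, *Krt18* and *Krt19* among themselves. Correlations of the deviations of log2(TPM + 1) from the group means over 33 libraries, which share their cultures and parallel numbers, are given as a description. They were 0.913 for *Cldn6* with *Cldn7*, 0.912 for *Krt8* with *Krt18*, 0.852 for *Krt8* with *Krt19* and 0.845 for *Krt18* with *Krt19*. *Krt7* was at 0.689 with *Krt18*, 0.654 with *Cldn6*, 0.615 with *Krt8* and 0.577 with *Krt19*, and *Krt18* was at 0.712 with *Cldn6*. The lowest of the 28 pairs was *Dsp* with *Cldn4* (-0.512) and the median was 0.573. Without the first E14Tg2a day 0 library those 4 pairs were at 0.859, 0.747, 0.713 and 0.717, *Krt18* with *Cldn6* at 0.398 and *Dsp* with *Cldn4* at -0.633, with a median of 0.426, and *Krt7* with *Krt18* was then second at 0.752. *Cldn6* exceeded *Cldn7* in all 33 libraries, by 1.51 to 4.28 times.

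The genes outside the set with the most similar pattern were found by correlation over the 12 group means with the mean standardised profile of the members, among 12080 genes. They were *Podxl* (0.985), *Reep5* (0.984), *Rab11a* (0.983), *Klf6* (0.979), *Pcmt1* (0.978), *B2m* (0.977), *Pam* (0.974), *Ip6k2* (0.973), *Rnf128* (0.972) and *Carhsp1* (0.971). *Podxl*, which encodes the sialomucin podocalyxin of apical membranes, went from a mean of 13.6 TPM on day 0 to 279.7 TPM on day 8 in E14Tg2a, and ended at 118 TPM (ΔK9.1) and 137 TPM (ΔK9.2). Among the members, *Krt18* (0.987) was nearest to their common profile and *Cldn4* (-0.503) farthest from it. *Krt8* was at 0.92, *Krt7* at 0.861, *Dsp* at 0.804, *Cldn7* at 0.767, *Krt19* at 0.762 and *Cldn6* at 0.689. The common profile contains each member itself, so the values of members are not comparable with those of genes outside the set.

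Other genes of epithelia were read from lists in the same limma fit, between days 0 and 8 in E14Tg2a, where 15.9% of all genes were called higher and 1794 of 16336 lower. Of 7 other keratins measured of 21 listed, *Krt13* (log2 change 1.69, 0.660 to 5.21 TPM) and *Krt15* (1.03, no longer called after rescaling, at 0.98, or without any 1 of 4 libraries, at 0.87 to 0.95) rose, and *Krt42* (-4.92, 33.5 to 0.145 TPM) and *Krt17* (-3.37, 10.5 to 0.112 TPM) fell. Of 9 other desmosome genes measured of 14, the desmosomal cadherin *Dsc2* rose (3.19, 0.713 to 14.9 TPM) and the plakophilin *Pkp3* fell (-1.28), with a median of -0.03. Of 18 other tight junction genes measured of 28, 7 rose and 2 fell. Among them were *Cldn11* (3.19), the endothelial claudin *Cldn5* (2.54, or 1.93 and 3.24 without replicate 2 or 3 of day 8) and the paracingulin gene *Cgnl1* (2.23), and the adhesion molecule *Jam2* (-4.57, 70.1 to 2.04 TPM). Of 10 adherens junction genes only *Cdh1*, which encodes E-cadherin, was called (-1.50, 113 to 39.9 TPM).

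Of 11 epithelial transcription and splicing factors measured of 14, 1 rose and 6 fell, with a median of -1.02. *Klf4* (-3.46, 71.5 to 5.60 TPM) and *Klf5* (-3.40, 87.8 to 7.43 TPM), which are also pluripotency factors, *Grhl3* (-2.06) and *Tfap2c* (-1.81) were the largest falls. Of 8 epithelial surface proteases and related genes, 4 rose, among them the serine protease *Prss8* (2.04), the polarity gene *Crb3* (1.28) and the tricellular junction gene *Lsr* (1.19). *Crb3* lost its call without replicate 3 of day 0 (0.87, adjusted p = 0.0697) and *Lsr* without replicate 1 of day 8 (0.93). Without the first day 0 library the rises of *Prss8* and *Crb3* were 2.50 and 1.70. The rise of the member keratins and *Dsp* thus stood beside a fall of *Cdh1* and mixed calls among the other junction genes.

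Between the clones and E14Tg2a on day 8, 1 of the 7 other keratins, *Krt13*, was called lower (-1.62, adjusted p = 8.3e-05), where 3.42% of all genes were, as were 2 of the 18 tight junction genes, *Cldn5* (-1.56, adjusted p = 0.0136) and *Cldn11* (-1.42, adjusted p = 0.000576). *Cldn5* lost its call without E14Tg2a replicate 2 of day 8 (adjusted p = 0.230) and with only the day 8 libraries (0.159), the latter as did *Cldn11* (0.0686). None of the 9 desmosome, 10 adherens junction, 11 transcription and splicing factor or 8 protease genes was called there in limma's test.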

How the data were processed

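The deposited table held TPM for 33 poly-A libraries. Per the labels and methods, the authors used STAR (genome mm10) and RSEM on stranded read pairs. They derived TPM after leaving out outliers of a principal component analysis, and what these outliers were is not stated. Why day 6 has fewer replicates is not stated either. The 22 columns of the authors' own comparisons (log2 fold changes and adjusted p-values) were not used. TPM keep no depth, and a gene that takes a large share lowers all others.

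TPM were tested as log2(TPM + 1) with limma 3.58.1 (R 4.3.3, empirical Bayes with trend) in 1 fit of 12 group means over all 33 libraries, Benjamini-Hochberg over 16336 genes, with the limits given beside the results. Day 0 was fitted on its 9 libraries, for genes that reached a group mean of 1 TPM. The *Krt8* to *Krt18* ratio was compared by exact permutation. The limma tests of the clones against E14Tg2a measure the spread among cultures within lines, not between clones. The script was tested on simulated data. The other analyses used Python 3.11.15.

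Members and lists were chosen with earlier results of these data known. Named genes are the 8 members, the 10 of most similar group-mean profile (at least 5 TPM in a group) and, from each list, at most 4 of the largest called changes by day 8 in E14Tg2a and 3 between clones and E14Tg2a. *Krt8-ps* was named for its shared sequence. The values of 1 gene that the rule picks are not reported here. Same-numbered replicates were parallel cultures. Their deviations from group means had a median correlation of 0.222 over 33 pairs, of which 31 were above 0.1 (different numbers: -0.127 over 60 pairs). Deviations cancel out within a group, so the value for different numbers is no independent comparison. Alternatives were the replicate block, only the compared groups, a pseudocount of 0.1, a minimum of 5 TPM or none, median rescaling and leaving out each library.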

Additional observations from a re-analysis of the deposited data

Results flagged for a closer look

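The *Cldn6* estimates for the clones against E14Tg2a had opposite signs on days 6 and 8. Against the E14Tg2a library of the same replicate number, log2(TPM + 1) was higher in 4 of 4 clone libraries on day 6 (18.1% of all genes), by 0.33 on average. It was lower in 6 of 6 on day 8 (mean -0.71). These means lie 1.04 apart on the log2 scale. The difference between the days was not tested, and *Cldn6* was not called on either day. Its libraries overlapped between the clones and E14Tg2a on day 6, whereas on day 8 every clone library was below every E14Tg2a library (7.99% of all genes). *Cldn7* was at 0.55 on day 6 (4 of 4 clone libraries higher) and at -0.56 on day 8 (5 of 6 lower), also not called on either day.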

How the results depend on the processing

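The counts of members called kept within 1.5 times their value in 138 of 151 combinations of comparison and setting. Of the values of single genes, 1254 kept their direction and side of the threshold, 45 lost a call, 11 gained one and 22 turned sign. For the clones against E14Tg2a on day 0, only *Cldn4* and *Krt18* were counted among single genes, so sign turns of other members there are left out. These tallies include the setting without a filter, which could not change a fit of all 33 libraries. Of the counts over all genes, 110 stayed within 1.5 times and 30 did not. For the clones against E14Tg2a, the replicate block gave 3 called members on day 6 and 1 on day 8, and so did a fit of only the compared groups (3 and 1). The block changed no other call of a member. Leaving out 1 library at a time gave 0 to 3 called members for the clones on day 6, where the lone sample left in an arm is assumed to vary like the other groups, 0 to 1 on day 4, 0 to 1 for the interaction, and 4 to 6 for day 6 against day 0 in E14Tg2a. Each value whose sign turned had not been called. Against -0.03, *Krt7* in the clones on day 4 was at 0.036 with a pseudocount of 0.1 and 0.024 after rescaling, and ran from -0.36 to 0.29 with a library left out. The like ranges were -1.02 to 0.84 for *Krt19* and -0.008 to 0.67 for *Krt7* on day 4 in E14Tg2a, -0.69 to 0.91 and -0.91 to 0.69 for *Krt18* of ΔK9.1 and ΔK9.2 on day 0, -0.40 to 0.039 for *Dsp* in the clones on day 8, and, for the interaction, -1.11 to 0.75 for *Krt19*, -1.27 to 0.42 for *Krt8* and -0.39 to 0.15 for *Cldn4*. The cause was not tested.

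Over all genes, a pseudocount of 0.1 called 2000 genes against 1265 on day 4 in E14Tg2a, and 196 against 130 and 1155 against 693 in the clones on days 4 and 8. A fit of only the compared groups called 22, 140 (against 265) and 334 on days 4, 6 and 8, and 269 against 499 in the interaction. Day 0 gave 11 genes, 20 with a minimum of 5 TPM, 30 with all 33 libraries and 145 with the block. Leaving out 1 library gave 1 to 135 genes on day 0, 38 to 181, 57 to 532 and 372 to 953 in the clones on days 4, 6 and 8, and 168 to 752 in the interaction. Rescaling moved the median of all genes by at most 0.072, and only the call of *Krt15* by day 8 was lost with it (0.98). All 16336 listed genes already reached a mean of 1 TPM in a group, so removing that filter could not change the 33-library fits. TPM give no counting error for low genes such as *Krt7*.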
